A study of Mus musculus with 41 samples.

Results

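Loss of Pelo in mouse embryonic fibroblasts (MEFs) was followed by ribosome profiling, which sequences the stretches of mRNA that ribosomes shield from nuclease, so that the count of ribosome protected fragments (RPF) on a coding sequence follows how many ribosomes occupied it. The comparison holds the 3 Pelo-/- footprint libraries and the 3 control footprint libraries sequenced in the same pool (batch 4), 6 of the 41 samples of the series and of its 30 footprint libraries. These libraries were taken by their labels, and every gene was used. Fibroblasts were primary cells of C57BL/6 embryos at embryonic day 13, with 1 embryo per replicate, 3 embryos per genotype and 2 dishes pooled per footprint replicate. Mutant cells were CAG-Cre ER; Pelo cKO, with loxP sites on either side of exon 2 of both Pelo alleles (Pelo fl/fl), and are called Pelo-/- here. Control cells were CAG-Cre ER with no floxed allele. The transgene is a Cre recombinase that the CAG promoter drives in all cells and that tamoxifen activates. Control and mutant cells alike received 1 µM 4-OHT, the active form of tamoxifen, for 48 hours and were collected 48 hours after seeding (passage P1, Day 2). All cells also carried the n-Tr20 B6J/B6J mutation, a defect in an arginine tRNA gene that C57BL/6J mice carry.

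Pelota, the protein of Pelo, resembles the factor that recognises stop codons, but it enters ribosomes whose A site is empty of intact mRNA or blocked. With its GTPase partner HBS1L and the recycling ATPase ABCE1 it splits stalled ribosomes, so that the subunits return to use and the truncated or faulty mRNA is left to the exosome. Fibroblasts make collagen and other extracellular matrix, contract, and also sense viral RNA, to which they answer with interferon and chemokines. The question of the comparison was which genes gain or lose ribosomes when Pelo is deleted.

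Totals of RPF on coding sequences were 16841113, 16704819 and 25607974 in Pelo-/- libraries and 11443890, 12722830 and 11251272 in control libraries, with between 14571 and 15693 genes counted per library. Each library correlated at 0.989 or more with the others of its genotype and at 0.959 or less with those of the other genotype. The embryos were not matched for sex. Of the Y-linked RNA helicase gene Ddx3y, control libraries held 0.616, 0.895 and 108.1 CPM and Pelo-/- libraries 101.7, 97.3 and 0.846 CPM. Here CPM of footprints are counts scaled for library size with edgeR's TMM factors. The third control and the first and second Pelo-/- libraries therefore carried Y-linked RPF, and the others nearly none. Hemoglobin genes, markers of red cells, had no count in any of the 6 libraries for Hba-a1, Hba-a2, Hbb-bs and Hbb-bt. Vim, the intermediate filament gene of fibroblasts, was at 10230, 10830 and 9967 CPM in controls and 10730, 11130 and 9663 CPM in Pelo-/- cells.

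Pelo (ENSMUSG00000042275.9) lies at chr13:115088355-115090186 on the minus strand of GRCm38, within an intron of the integrin gene Itga1. It also shares exons with the readthrough gene Gm49395 on the same strand and overlaps Gm10734 on the opposite strand, so that short fragments of these models cannot always be told apart. Its RPF were at 34.7, 38.4 and 31.8 CPM in controls and at 2.81, 2.98 and 2.00 CPM in Pelo-/- cells. The genotypes were far apart and matched the labels in every library. The log2 fold change was -3.78 (SE 0.156, adjusted p = 1.64e-07), a level 13.7-fold lower, with edgeR's quasi-likelihood test and Benjamini-Hochberg adjustment, from which all adjusted p in the text come. Counts cover the whole coding sequence, whether inside or outside the loxP sites. Hbs1l, the GTPase partner, was at 38.0, 37.5 and 32.8 CPM in controls and at 28.5, 28.9 and 26.4 CPM in Pelo-/- cells, and it fell by 0.37 on the log2 scale (SE 0.089, adjusted p = 0.00692). Abce1 gave 0.03 (SE 0.081, adjusted p = 0.789), with overlapping groups.

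Of 12486 genes past the filter on low counts, 5502 (44.1%) differed in RPF at an adjusted p of at most 0.05. RPF were higher in Pelo-/- cells for 2858 genes (22.9%) and lower for 2644 (21.2%). The groups did not overlap for 6918 genes (55.4%), and for 5404 of the 5502. Increases reached further than decreases, since 912 of the higher genes rose by at least 1 on the log2 scale and 220 by at least 3, while 528 of the lower genes fell by at least 1 and 20 by at least 3. The median log2 fold change of all tested genes was 0.0037 and the median size of a change, without its sign, was 0.289. These shares, 22.9% higher and 21.2% lower, are the background for every count of list members. Histone genes, whose mRNAs lack the poly(A) tail, were left out of the test. Their summed level was 4594 to 5604 CPM in controls and 9381 to 11550 CPM in Pelo-/- cells.

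**Figure D1:**
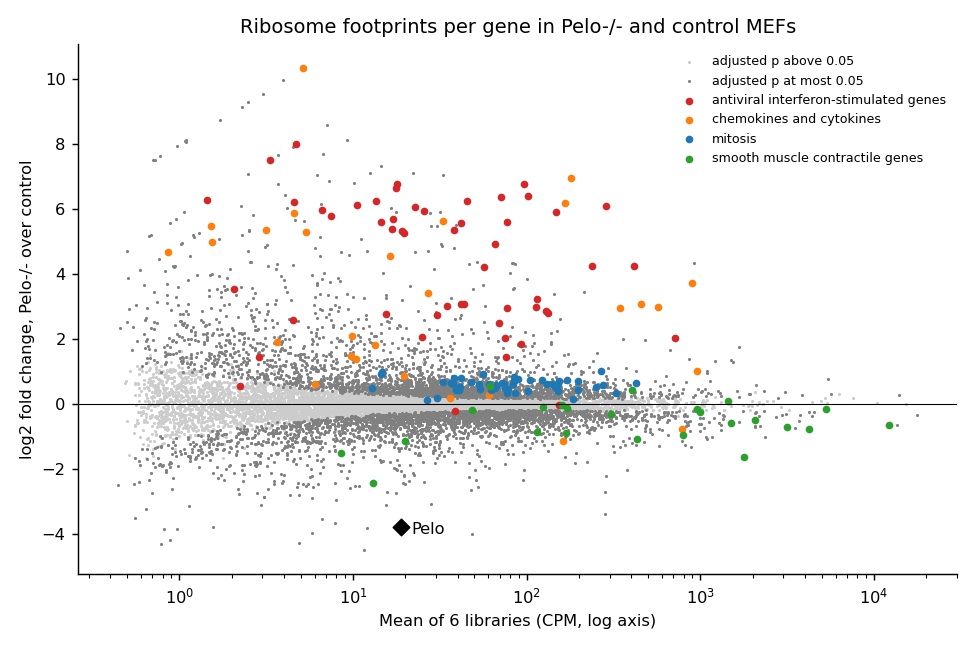
Mean level of the 6 libraries (CPM, log axis) against the log2 fold change of Pelo-/- over control RPF for each tested gene, with antiviral interferon-stimulated genes, chemokines, mitosis genes, smooth muscle genes and Pelo marked. Most antiviral and chemokine genes lie above 3 (list medians 5.11 and 3.04), mitosis genes form a narrow band with a median of 0.61, smooth muscle genes lie mostly below 0, and Pelo is at -3.78.

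Most antiviral interferon-stimulated genes gained ribosomes in Pelo-/- cells. Interferons released by infected cells act through JAK kinases and a complex with STAT2 and IRF9, which binds a short element in the promoters of these genes. Of 53 listed genes 52 passed the filter, 49 were higher (background 22.9%), none was lower, and the median log2 fold change was 5.11. Their summed level was 766.4 to 1030 CPM in control and 5943 to 7819 CPM in Pelo-/- libraries. Many members have almost no RPF in controls and passed the filter through the Pelo-/- libraries, so the count describes the list and is no test of it. Samhd1 (-0.03) and Ifitm2 (-0.22) were among the members that did not pass the threshold.

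Usp18, a protease that removes ISG15 from proteins and restrains interferon signalling, was at 1.496, 0.813 and 2.94 CPM in controls and at 196.3, 158.8 and 216.9 CPM in Pelo-/- cells. That is 110-fold higher, with a log2 fold change of 6.78 (SE 0.247, adjusted p = 8.28e-08), or 7.37 without control replicate 3. Oasl2, an oligoadenylate synthetase-like protein, went from 2.02, 1.30 and 3.74 CPM to 201.4, 150.9 and 248.3 CPM, 85.8-fold higher (6.42, SE 0.279, adjusted p = 1.88e-07). In both genes every Pelo-/- library lay far above every control, and Pelo-/- replicate 2 was the lowest of the mutants. Ifi44 rose by 6.40 (SE 0.228) and Rtp4, a chaperone of membrane receptors with antiviral activity, by 6.27 (SE 0.227). Oas3, an oligoadenylate synthetase that senses double-stranded RNA, was at 0.264, 0.244 and 0.357 CPM in controls and at 21.7, 16.5 and 24.1 CPM in Pelo-/- cells (6.14, SE 0.268). The giant ubiquitin ligase gene Rnf213 was among the 5 genes with the largest gain in CPM. It held 86.3, 72.8 and 98.8 CPM in controls and 1746, 1518 and 1973 CPM in Pelo-/- cells (4.35, SE 0.136, adjusted p = 3.19e-08). Helz2, a helicase and nuclear receptor coactivator, had the smallest p of all higher genes, at 20.3, 22.3 and 22.6 CPM against 204.3, 192.9 and 223.7 CPM (3.25, SE 0.085, adjusted p = 1.91e-08). Lgals3bp, a secreted glycoprotein, rose by 4.25 (SE 0.119), from 40.2, 35.2 and 49.7 CPM to 792.3, 752.9 and 824.0 CPM. Isg15, the ubiquitin-like protein itself, and Ifit1, which binds RNA without a host cap, are added after their values were seen. Isg15 stood at 8.10, 4.31 and 12.3 CPM against 559.4, 448.3 and 685.8 CPM (6.11, SE 0.283), and Ifit1 at 4.49, 3.09 and 7.13 CPM against 294.7, 192.1 and 387.7 CPM (5.91, SE 0.316).

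Most sensors of foreign nucleic acid and interferon signalling factors rose with them. Of 35 listed genes 33 were tested, 28 were higher (background 22.9%), 1 was lower and the median was 1.93. Of the 33, 3 had at most 10 counts over the 3 controls and passed the filter through the Pelo-/- libraries. Members with somewhat more, such as Dhx58 (9, 4 and 7 control counts) and Nlrc5 (5, 7 and 4), also needed those libraries, and the count is a description. Zbp1, a sensor of left-handed nucleic acid that can start necroptosis, was at 0.0880, 0.244 and 0.178 CPM in controls and 24.4, 14.3 and 36.2 CPM in Pelo-/- cells (7.13, SE 0.537, adjusted p = 5.94e-06, and 8.89 against the control libraries of the Upf2 pool). Irf7, the transcription factor that amplifies interferon production, rose by 5.89 (SE 0.258, or 5.26 against the controls of the Upf2 pool). Ifih1, the cytosolic sensor MDA5 of long double-stranded RNA, went from 8.63, 7.57 and 11.3 CPM to 152.8, 128.2 and 172.7 CPM (4.05, SE 0.154). Stat2 was at 11.3, 13.4 and 14.4 CPM against 152.5, 126.5 and 182.7 CPM (3.56, SE 0.148, adjusted p = 1.64e-07) and its DNA-binding partner Irf9 rose by 3.56 (SE 0.170). No control library reached the level of any mutant library for these 5 genes. Mavs, the adaptor on mitochondria through which RNA sensors signal, was the 1 lower member (-0.21, adjusted p = 0.0309), a call that did not hold with DESeq2 or without any 1 of the 6 libraries. The interferon gene Ifnb1 lay below the filter, with no count in the 3 control libraries and 6, 7 and 20 counts in Pelo-/- libraries.

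**Figure D2:**
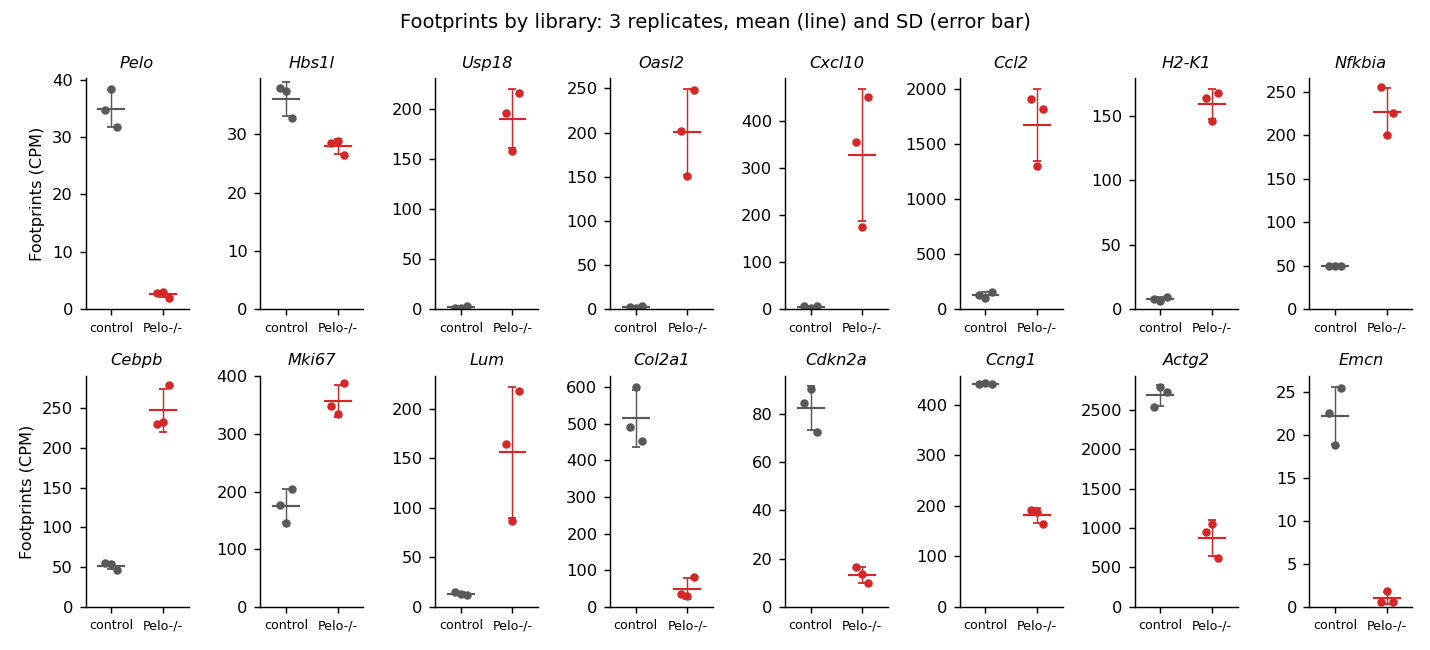
RPF level (CPM) of 16 genes in each of the 3 control and 3 Pelo-/- libraries, with the mean as a line and the SD as a bar. Usp18, Oasl2, Cxcl10, Ccl2 and H2-K1 are near the axis in controls, Pelo falls from above 31 to below 3 CPM, and the groups of each gene shown are separate.

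Interferon-induced GTPases, which coat and disrupt the vacuoles of intracellular pathogens, were higher in each of the 12 genes tested of 18 listed. The other 6, among them Gbp4, Gbp6 and Gvin1, had too few counts. Of the 12, 4 had at most 10 counts over the 3 controls and passed the filter through the Pelo-/- libraries. Iigp1, with 5, 8 and 4 control counts, also needed those libraries, so this count too is a description. The fitted median was 5.23, and with the 1 member that had no control count set at its lower bound it was 4.83. Igtp was at 1.67, 1.46 and 1.87 CPM in controls and 81.3, 55.7 and 93.7 CPM in Pelo-/- cells (5.53, SE 0.241, adjusted p = 1.88e-07). Iigp1 was at 0.440, 0.651 and 0.357 CPM against 62.7, 37.2 and 97.3 CPM (7.06, SE 0.486). Gbp5 had 1, 0 and 1 counts in controls and 229, 116 and 510 counts in Pelo-/- libraries, a ratio of scaled levels of 250 with a counting interval from 69.1 to 2071. Irgm1, already at 57.0, 57.8 and 64.6 CPM in controls, rose by 1.85 (SE 0.078) to 231.5, 207.4 and 207.6 CPM. GBP and IRG genes have near copies, among which short fragments can be assigned wrongly.

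Genes of MHC class I, which shows peptides of the cell's own proteins to cytotoxic T cells, followed. Of 23 listed genes 22 were tested, 19 were higher and 2 were lower (background 22.9% and 21.2%), and the median was 2.11. Here too 3 of the 22 had at most 10 counts over the 3 controls and passed the filter through the Pelo-/- libraries. Psmb9, with 2, 2 and 9 control counts, also needed those libraries, so the count is a description. H2-K1, the classical heavy chain, was at 7.75, 6.26 and 9.63 CPM in controls and 163.9, 145.8 and 167.3 CPM in Pelo-/- cells, 20.2-fold higher (4.34, SE 0.130, adjusted p = 2.41e-08). H2-D1 went from 13.6, 14.6 and 11.1 CPM to 199.9, 171.4 and 193.7 CPM (3.84, SE 0.108). The Pelo-/- libraries of both genes were close together and far from the controls, although H2 heavy chains resemble each other and their reads may be shared. Psmb8, a catalytic subunit of the immunoproteasome, rose by 4.86 (SE 0.238), while of the constitutive proteasome list 1 of 33 tested genes was higher and 1 lower (median 0.01). Tap2, which moves peptides into the endoplasmic reticulum, rose by 2.58 (SE 0.144), and Tapbp, which helps to load them, by 2.13 (SE 0.106). The light chain gene B2m, added after its values were seen, was at 694.9, 689.2 and 684.9 CPM against 1774, 1814 and 1604 CPM (1.33). The general chaperones Pdia3 and Canx fell by 0.36 each.

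Short windows show the interferon element of these promoters, taken from RefSeq promoters of GRCm38.p6 that run from 250 bases before to 50 bases after each gene's start.
The letters searched on both strands were GAAA, any 2 bases and GAAA, and the capitals mark the matched bases as they stand on the gene's own strand.
Oas3: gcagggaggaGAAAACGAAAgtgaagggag
Stat2: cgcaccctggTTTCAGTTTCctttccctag
Gbp5: acttgtgtagTTTCAATTTCagtttagaga
Igtp: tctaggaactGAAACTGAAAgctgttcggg
The windows lie at chr5:120777715-120777744 on the minus strand (Oas3), chr10:128270266-128270295 on the plus strand (Stat2), chr3:142496759-142496788 on the plus strand (Gbp5) and chr11:58199512-58199541 on the plus strand (Igtp). Their matches begin 75, 222, 165 and 34 bases before the start. Of 40 antiviral genes with a RefSeq promoter 17 hold the letters (42.5%), of the GTPases 9 of 10 (90%), of the sensors 7 of 27 (25.9%) and of the MHC class I genes 5 of 19 (26.3%). Among all 27025 promoters the share was 3.99%, and among the 9878 of tested genes it was 3.73%. A match describes the sequence and does not show binding.

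Chemokines and cytokines, the secreted proteins that call in leukocytes, were the next group. Of 31 listed genes 28 were tested, 23 were higher, 2 were lower and the median was 3.04. Of the 28, 7 had at most 10 counts over the 3 controls and entered the test through the Pelo-/- libraries, so the count and the median describe the list and test nothing. The sum went from between 2350 and 2474 CPM to between 6238 and 7929 CPM. Cxcl5, which attracts neutrophils, stood at 2.64, 2.03 and 3.92 CPM in controls and 382.0, 229.6 and 463.5 CPM in Pelo-/- cells (6.98, SE 0.317, adjusted p = 2.22e-07, or 7.73 and 7.78 against the controls of the Hbs1l and Upf2 pools). Cxcl10, which attracts activated T cells, was at 5.72, 1.79 and 5.88 CPM against 355.3, 174.3 and 449.5 CPM (6.21, SE 0.429, adjusted p = 3.53e-06). Pelo-/- replicate 2 was again the lowest mutant in both, but lay far above the highest control. Cxcl9 had no count in controls and 10.5, 7.97 and 12.5 CPM in Pelo-/- cells, at least 40.2-fold higher when set against 3 counts in each control library. Cxcl1 rose by 5.63 (SE 0.295), Ccl5 by 4.56 (SE 0.241) and Ccl20 by 3.43 (SE 0.264). Ccl2, the chief attractant of monocytes, was the chemokine with the largest gain, from 127.4, 99.2 and 154.9 CPM to 1907, 1297 and 1815 CPM (3.72, SE 0.186, adjusted p = 4.26e-07), 13.2-fold higher. Cxcl12, the homeostatic chemokine of stromal cells, fell by 1.12 (adjusted p = 4.59e-05). Ptgs2, the inducible cyclooxygenase, fell by 0.76 (adjusted p = 0.0231), and 1 of these 2 lower calls was lost with DESeq2, without control replicate 2 or 3 or without Pelo-/- replicate 1. Tnf and Il6, added after their values were seen, rose by 5.35 and 1.82.

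NF-kB, the transcription factor behind many chemokine genes, is held in the cytoplasm by inhibitors that are themselves its targets. Of the 26 listed factors and targets, all tested, 23 were higher, Bcl2l1 was lower (-0.48), Tnfaip3 (0.02) and Rel (0.18) did not pass, and the median was 1.47. Of the 26, 1 (Lcn2) had at most 10 counts over the 3 controls and passed the filter through the Pelo-/- libraries. Saa3 (1, 9 and 1 control counts), Traf1 (9, 6 and 4) and Mmp10 (7, 7 and 7) also needed those libraries to pass. This count too is a description. Nfkbia, the main inhibitor, was at 49.6, 49.4 and 49.0 CPM in controls and 254.8, 200.5 and 225.8 CPM in Pelo-/- cells, 4.60-fold higher (2.203, SE 0.091, adjusted p = 1.64e-07). Its control libraries were nearly equal and all mutants stood far above them. Nfkbie rose by 2.02 (SE 0.166) and Bcl3, an atypical family member, by 3.39 (SE 0.218). The complement component C3 went from 1.67, 1.14 and 1.16 CPM to 45.7, 52.7 and 79.6 CPM (5.49, SE 0.277, adjusted p = 4.45e-07). Acute phase genes stood at the edge of detection in controls. Lcn2, which withholds iron from bacteria, had 1 count in all 3 controls and 12.1, 8.51 and 21.7 CPM in Pelo-/- cells, a ratio of 531 with a counting interval from 95.1 to 21010. Saa3, a serum amyloid gene, was at 0.0880, 0.732 and 0.0891 CPM against 32.1, 39.6 and 60.9 CPM (7.11, SE 0.445, or 8.85 without control replicate 2 and up to 9.71 against other controls). The matrix proteases Mmp3 and Mmp13 rose by 4.15 and 3.29, the latter by 3.91 without control replicate 1.

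The letters GGGA, any base and TTTCC, searched on both strands in the same promoter windows, show a kB element in the following genes, again with the matched bases in capitals.
Cxcl1: cctgtactccGGGAATTTCCctggcccgga
Cxcl2: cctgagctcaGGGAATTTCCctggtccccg
Nfkbia: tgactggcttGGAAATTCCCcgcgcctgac
These lie at chr5:90891164-90891193 and chr5:90903792-90903821 on the plus strand and chr12:55492657-55492686 on the minus strand, 71, 97 and 29 bases before the start. Of the chemokine promoters 4 of 20 hold the letters (20%) and of the NF-kB list 2 of 21 (9.52%), beside 0.466% of all promoters and 0.486% of those of tested genes. Cxcl2 itself rose by 5.29 (SE 0.383), from 0.176, 0.244 and 0.357 CPM to 14.4, 8.03 and 8.92 CPM, and by 6.45 and 6.72 against the controls of the Hbs1l and Upf2 pools.

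Markers of macrophages and other leukocytes moved with the interferon and chemokine genes. Of 20 listed genes 16 were tested and each was higher, with a median of 1.88, and their sum was 168.6 to 227.7 CPM in controls and 608.8 to 864.0 CPM in Pelo-/- cells. Lyz2, the lysozyme of myeloid cells, was at 58.1, 48.9 and 66.9 CPM against 269.6, 196.7 and 190.5 CPM (1.92, SE 0.148, adjusted p = 7.09e-06). Adgre1, the F4/80 antigen of macrophages, was at 10.3, 8.87 and 13.8 CPM against 93.6, 61.0 and 64.6 CPM (2.74, SE 0.196). Ptprc, the CD45 antigen of all leukocytes, rose by 2.07 (SE 0.181) and Cd14, a coreceptor for endotoxin, by 2.85 (SE 0.163). All 3 Pelo-/- libraries were above all controls in each, and replicate 1 was the highest of them. The T cell gene Cd3e had no count in any library, Ms4a1 and Cd79a of B cells were below the filter, and Itgam had 1, 2 and 1 counts in controls and 14, 10 and 16 in Pelo-/- libraries. The part of these cells in the interferon, MHC and chemokine results was not tested, and in whole cultures more cells of a type and more ribosomes per cell cannot be told apart.

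Genes for ribosomal proteins of the large subunit were higher in 36 of 47 tested (49 listed), with no lower gene and a median of 0.58. Their sum was 3981 to 4098 CPM in controls and 5408 to 5651 CPM in Pelo-/- cells. For the small subunit 19 of 32 tested genes were higher and none was lower (median 0.46, sum 3630 to 3745 against 4776 to 5038 CPM). Rpl27a was at 3.96, 4.72 and 5.35 CPM in controls and 85.8, 126.2 and 83.2 CPM in Pelo-/- cells (4.39, SE 0.197, adjusted p = 2.11e-07), and Rps16 at 3.35, 4.15 and 2.32 CPM against 21.8, 16.4 and 13.7 CPM (2.38, SE 0.232). Both had separate groups. Rpl24, at 6.51, 6.35 and 18.5 CPM against 65.8, 16.7 and 17.8 CPM, had overlapping groups and an unstable call. Its change of 1.67 went to 0.73 without Pelo-/- replicate 1 (adjusted p = 0.174), and the call was also lost with DESeq2 (adjusted p = 0.0885), against the controls of the Upf2 pool (adjusted p = 0.146) and without control replicate 1 (adjusted p = 0.126) or 2 (adjusted p = 0.124). Ribosomal protein genes have many processed pseudogenes, among which short fragments can be split.

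Ribosome biogenesis, the nucleolar making of new subunits, was higher in 50 of 56 tested genes and lower in 2 (Nop10 and Rrn3; 1 with DESeq2 or without any 1 library other than control replicate 2), with a median of 0.41. Tcof1, the treacle factor of rRNA transcription, rose by 0.97 (SE 0.060), from 96.2, 97.7 and 98.1 CPM to 184.5, 193.7 and 194.9 CPM, and Polr1b, a subunit of RNA polymerase I, by 0.84 (SE 0.071). The libraries of each genotype were close together and the groups separate. Among 45 translation factors 17 were higher and 4 lower (median 0.11, 1 lower without control replicate 1). Eef2, which moves the ribosome along, rose by 0.38, and Eif4a2 fell by 0.65 while its paralog Eif4a1 rose by 0.66. Of 23 aminoacyl-tRNA synthetase genes 14 were higher (60.9%, beside 22.9% of all tested genes). Without control replicate 1, 7 of them and 2248 of 12848 tested genes were higher. Of 23 rescue and quality control genes, Pelo among them, 6 were higher and 5 lower, shares near those over all tested genes (22.9% and 21.2%). Without control replicate 1, 3 of them and 2022 of 12848 tested genes were lower. Ascc3, a helicase that takes apart collided ribosomes, rose from 105.8, 108.6 and 114.3 CPM to 177.5, 175.7 and 178.9 CPM (0.70, SE 0.061, adjusted p = 1.60e-05), and Zfp598, the ligase that marks them, by 0.47. Map3k20, the kinase ZAK that signals collisions, fell by 0.60 (SE 0.074). Of the Ski, exosome and decay genes 12 of 22 were higher and none lower (median 0.33). Of the factors of nonsense-mediated decay (NMD) 8 of 18 were higher (44.4%, beside 22.9% of all tested genes). The count was 5 without control replicate 1, where 2248 of 12848 tested genes were higher. It was also 5 without Pelo-/- replicate 2, where 2728 of 12542 tested genes were higher.

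The integrated stress response slows initiation and lets ATF4 be translated. Of 36 tested entries of this list, in which Ddit3 has 2 gene IDs, 22 were higher and 3 lower (median 0.48). Cebpb, a transcription factor of stress and inflammation, was at 54.7, 53.8 and 46.4 CPM in controls and 230.5, 233.2 and 278.9 CPM in Pelo-/- cells (2.26, SE 0.098, adjusted p = 1.88e-07). Atf5 was at 48.1, 49.9 and 44.7 CPM against 137.7, 159.7 and 224.5 CPM (1.87, SE 0.158), and Atf4 itself at 62.7, 60.5 and 65.9 CPM against 104.5, 88.2 and 137.5 CPM (0.81, SE 0.138, adjusted p = 0.00105). Every mutant library of these genes lay above every control. Slc7a11 and Shmt2, which serve cystine uptake and serine metabolism, rose by 1.17 and 0.87. Chac1 (0.16) and Ppp1r15a (-0.13) did not pass, and Gdf15 and Nupr1 fell by 0.69 and 0.63. Of the IDs that share the symbol Ddit3, ENSMUSG00000025408.15 did not pass (-0.13, adjusted p = 0.487) and ENSMUSG00000116429.1 was lower (-0.56, adjusted p = 0.00761), and fragments may be split between them. Chaperones gave 10 higher and 10 lower genes of 44, again near the 22.9% and 21.2% over all tested genes. Without control replicate 1, 6 of them and 2248 of 12848 tested genes were higher. Of 37 mTORC1 pathway genes 6 were higher and 14 lower (16.2% and 37.8%, beside 22.9% and 21.2% over all tested genes). Without control replicate 1, 9 of them and 2022 of 12848 tested genes were lower.

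The 13 genes encoded by mitochondrial DNA gave 7 higher and none lower, with a median of 0.59. Mt-Nd3 was at 1.14, 2.60 and 2.67 CPM in controls and 14.1, 9.18 and 10.3 CPM in Pelo-/- cells (2.37, SE 0.278, adjusted p = 0.000101 for mt-Nd3, and 3.11 against the controls of the Upf2 pool). For mt-Co1 the levels were 1297, 1735 and 1946 CPM against 3124, 2429 and 1961 CPM, nearly touching (0.59, adjusted p = 0.0191), a call lost with DESeq2 (0.0549), without control replicate 1 and without Pelo-/- replicate 1. Mitochondrial genes have nuclear copies. Of 72 nuclear genes of oxidative phosphorylation 1 was higher and 13 lower, with a median of -0.03 (7 lower without control replicate 1), and the lower share lay under the 21.2% of all tested genes. Glycolysis and hypoxia genes gave 16 higher of 25 and 1 lower, with a median of 0.46. Slc16a3, which exports lactate, was at 34.2, 26.5 and 31.4 CPM against 122.0, 141.8 and 103.9 CPM (2.00, SE 0.128, adjusted p = 2.14e-06). Tpi1 and Pfkl, enzymes of glycolysis, rose by 0.73 and 0.79, and Adm, a vasodilator peptide induced by hypoxia, by 1.09.

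**Figure D3:**
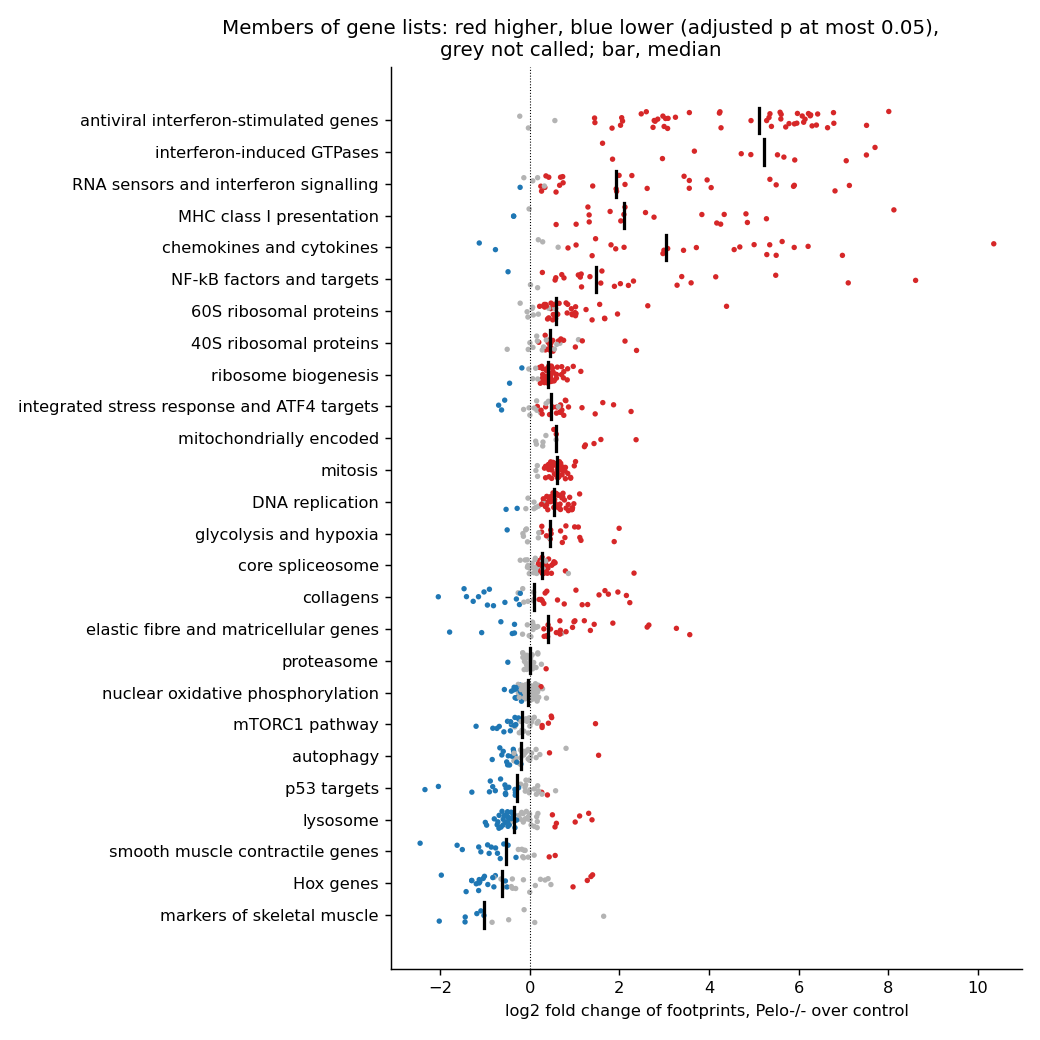
Log2 fold change of Pelo-/- over control RPF for the tested members of 26 gene lists, each point a gene (red higher, blue lower, grey not called) and each bar the list's median. Antiviral genes, GTPases and chemokines lie highest, mitosis and DNA replication form narrow groups above 0 (medians 0.61 and 0.55), and p53 targets, lysosome, smooth muscle and Hox genes have medians below 0 (-0.28, -0.34, -0.53 and -0.61).

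Genes of cell division gained ribosomes by modest amounts and with few exceptions. Of 50 mitosis genes 47 were higher and none lower (median 0.61), and of 50 DNA replication genes 39 were higher and 2 lower (median 0.55). Mki67, the proliferation marker, was at 175.9, 146.3 and 204.6 CPM in controls and 348.6, 333.9 and 388.3 CPM in Pelo-/- cells, 2.03-fold higher (1.02, SE 0.112, adjusted p = 6.72e-05). Ccnb1, the mitotic cyclin, went from 10.8, 9.52 and 9.89 CPM to 18.7, 18.9 and 19.4 CPM (0.92, SE 0.104). Cdt1, which loads the replicative helicase, went from 37.2, 31.3 and 30.4 CPM to 63.5, 75.0 and 75.4 CPM (1.12, SE 0.102, adjusted p = 2.04e-05). In all 3 genes the genotypes were separate. Mcm5, a subunit of that helicase, rose by 0.96 (SE 0.083), and Uhrf1, which guides maintenance methylation, by 0.95 (SE 0.074). The 2 lower members of the replication list were E2f1 (-0.53) and Ccne1 (-0.28), and leaving out 1 library removed 1 or both in 4 of the 6 fits.

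Promoters of the replication list hold the letters TTTNNCGC, an E2F element, on either strand in 16 of 40 genes (40%), beside 5.93% of all promoters, 9.88% of those of tested genes and 11.6% of the mitosis list (5 of 43). These 3 are shown with the matched bases in capitals.
Mcm5: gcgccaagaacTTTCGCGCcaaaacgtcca
Uhrf1: gccccacttgcTTTCTCGCttcccgccaca
Cdc6: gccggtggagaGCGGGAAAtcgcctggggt
They lie at chr8:75109345-75109374, chr17:56303270-56303299 and chr11:98908002-98908031 on the plus strand, 153, 56 and 138 bases before the start. Cdc6, which loads the helicase together with Cdt1, rose by 0.89, from 15.8, 13.7 and 15.9 CPM to 26.3, 28.5 and 29.3 CPM.

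Among cyclins and CDK inhibitors 4 of 26 genes were higher and 10 lower (median -0.20). Cdkn2a, which encodes p16 and p19ARF and rises as fibroblasts age in culture, was at 84.7, 90.2 and 72.3 CPM in controls and 16.5, 13.6 and 9.95 CPM in Pelo-/- cells, 6.25-fold lower (-2.64, SE 0.162, adjusted p = 1.70e-06). Its neighbour Cdkn2b fell by 1.77 (SE 0.127) and Cdkn1c by 0.97 (SE 0.184). Cdkn1a, which encodes p21 and is also a p53 target, was at 936.8, 1037 and 900.6 CPM in controls and 678.5, 727.9 and 593.2 CPM in Pelo-/- cells (-0.52, SE 0.088, adjusted p = 0.000954), and was added here after its values were seen. The remaining inhibitors in the list did not pass, with 0.03 for Cdkn1b (adjusted p = 0.789), 0.03 for Cdkn2d (adjusted p = 0.851) and 0.55 for Cdkn2c (adjusted p = 0.346). Targets of p53 followed, with 18 of 34 lower, 2 higher (1 with DESeq2 or without control replicate 1 or Pelo-/- replicate 1 or 3) and a summed level of 4315 to 4647 CPM in controls and 3032 to 3504 CPM in Pelo-/- cells. Ccng1, a cyclin that p53 induces, was at 442.5, 443.4 and 441.8 CPM against 191.7, 187.4 and 164.9 CPM (-1.29, SE 0.071, adjusted p = 8.73e-07). The control libraries of Ccng1 were nearly equal and all mutants lay well below them. Perp and Pmaip1, both tied to cell death, fell by 2.33 (SE 0.182) and 2.03 (SE 0.210), and Mdm2, the ligase that limits p53, by 0.77 (SE 0.125). Trp53 itself was 0.27 higher.

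Lysosome genes were lower in 29 of 54 tested and higher in 7, with a median of -0.34 and a sum of 10270 to 11480 CPM in controls and 8305 to 9164 CPM in Pelo-/- cells. Asah1, the acid ceramidase, was at 395.5, 410.8 and 401.2 CPM against 221.0, 207.4 and 180.9 CPM (-0.99, SE 0.079, adjusted p = 8.78e-06), and Atp6v0d1, a subunit of the proton pump, fell by 0.79 (SE 0.061). The groups of both genes were clearly apart. Of the 7 higher genes, Ctss (1.39), Cd68 (1.11) and Ctsc (1.02) are ones that macrophages also express in abundance, and Ctsk rose by 1.32. Autophagy genes were lower in 14 of 36 (38.9%, beside 21.2% of all tested genes) and higher in 2. Without control replicate 1, 8 of them and 2022 of 12848 tested genes were lower.

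More contractile genes of smooth muscle, which cultured fibroblasts use when they turn into myofibroblasts, fell than rose. Of 24 genes 14 were lower, 2 were higher and 8 were not called (median -0.53). The sum went from between 41330 and 46500 CPM to between 25110 and 33590 CPM. Actg2 was at 2538, 2796 and 2725 CPM in controls and 949.0, 1055 and 623.5 CPM in Pelo-/- cells, 3.07-fold lower (-1.62, SE 0.160, adjusted p = 3.43e-05). Acta2, smooth muscle actin and among the 5 genes with the largest loss in CPM, was at 14580, 16170 and 14140 CPM against 9578, 11090 and 7850 CPM (-0.66, SE 0.118, adjusted p = 0.00146). In both genes Pelo-/- replicate 3 was the lowest. Myocd, the coactivator of this programme, fell by 1.501 (SE 0.153), Cnn1 by 1.09 (SE 0.187) and Tagln by 0.76. Hox genes, which record position along the body, were lower in 18 of 36 and higher in 4 (median -0.61). Hoxa5 fell by 1.97 (SE 0.225), while Hoxd13, a gene of the distal limb, was at 6.16, 7.57 and 6.95 CPM against 21.1, 15.2 and 17.3 CPM (1.37, SE 0.151).

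Extracellular matrix genes moved both ways. Of 37 collagen genes 17 were higher and 13 lower (median 0.09), and of 39 elastic fibre and matricellular genes 22 were higher and 6 lower (median 0.40). Lumican (Lum), a small proteoglycan that spaces collagen fibrils, was at 14.9, 12.9 and 11.8 CPM in controls and 164.1, 86.4 and 217.8 CPM in Pelo-/- cells, 11.9-fold higher (3.57, SE 0.303, adjusted p = 1.30e-05). Its relative decorin (Dcn) rose by 1.86 (SE 0.197). Col6a3, of the beaded microfibrils, was among the 5 genes with the largest gain, at 785.9, 559.9 and 936.9 CPM against 2665, 2576 and 2470 CPM (1.76, SE 0.153). Tnn, tenascin N, had nearly equal controls at 8.45, 8.38 and 7.93 CPM and was at 183.9, 165.2 and 140.5 CPM in Pelo-/- cells (4.30, SE 0.118, adjusted p = 1.91e-08). Fibronectin (Fn1), the gene with the largest loss in CPM, was at 16490, 17900 and 15480 CPM against 10970, 11420 and 9594 CPM (-0.64, SE 0.090, adjusted p = 0.000312). Efemp1, a fibulin, fell by 1.78 (SE 0.079). Col2a1, the main collagen of cartilage, was at 490.5, 601.4 and 452.2 CPM in controls and 33.9, 30.8 and 82.1 CPM in Pelo-/- cells, 10.4-fold lower (-3.38, SE 0.325, adjusted p = 2.81e-05, and -3.99 without Pelo-/- replicate 3), and Col11a1 fell by 2.04 (SE 0.101). Fibroblast markers gave 11 higher and 1 lower of 15 (median 0.77) and skeletal muscle markers none higher and 6 lower of 11, beside 22.9% and 21.2% of all tested genes. The fibroblast marker sums overlapped, at 44220 to 47710 CPM in controls and 46740 to 49230 CPM in Pelo-/- cells. Chondrocyte markers, with 2 higher and 2 lower of 10, lay at those shares. Their sum, mostly Col2a1 in controls, was 542.4 to 699.5 CPM in controls and 138.8 to 217.9 CPM in Pelo-/- cells. Of 6 adipocyte markers 5 were higher and none lower, with sums of 50.84 to 57.49 CPM in controls and 108.1 to 159.8 CPM in Pelo-/- cells. As 1 of the 6 had at most 10 counts over the 3 controls, this count is a description. Of 11 neural and Schwann markers 5 were higher and 2 lower. Their sum was 516.2 to 705.1 CPM in controls and 253 to 410.4 CPM in Pelo-/- cells.

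Genes known from vessels and from muscle were among the 10 named for the largest falls. Emcn, endomucin of venous endothelium, was at 22.5, 18.8 and 25.4 CPM in controls and 0.598, 1.89 and 0.615 CPM in Pelo-/- cells, 22.5-fold lower (-4.49, SE 0.312, adjusted p = 3.62e-06, or -5.17 without Pelo-/- replicate 2). Rgs5, a regulator of G protein signalling in pericytes, was at 88.9, 107.0 and 77.9 CPM against 3.17, 9.79 and 4.38 CPM, 16.1-fold lower (-4.01, SE 0.296). Both kept their groups far apart. Selp, the adhesion molecule P-selectin, fell by 3.66 (SE 0.337) and Myom1, of the M-band of striated muscle, by 3.08 (SE 0.234). Of 13 endothelial markers 5 were higher and 4 lower (38.5% and 30.8%, beside 22.9% and 21.2% of all tested genes). The higher count was 3 without control replicate 1 or 2 or Pelo-/- replicate 1. Of 9 pericyte markers none was higher and 3 were lower (Rgs5, Mcam and Notch3). Of 9 tested epithelial markers 6 were higher and 2 lower, but 3 of the 9 had at most 10 counts over the 3 controls and were tested because of their Pelo-/- counts, and 5 of the 6 were below 1 CPM in every RNA library. Their sum was 139.8 to 193.7 CPM in controls and 104.4 to 178.0 CPM in Pelo-/- cells. The lower ones were the keratins Krt18 (-1.26) and Krt19 (-0.70). Krt14 and Krt5 rose, by 5.14 and 4.82, but differed widely between the mutants, with 3.95, 24.1 and 9.42 CPM for Krt14 and 1.91, 25.2 and 7.99 CPM for Krt5. They gave 4.28 and 3.64 without Pelo-/- replicate 2, and 5.94 and 6.60 against the controls of the Hbs1l pool. Against the controls of the Upf2 pool Krt5 gave 6.32. Tph1, the enzyme that starts serotonin synthesis, had the smallest p of all lower genes, at 23.7, 23.4 and 20.3 CPM against 1.79, 1.46 and 1.58 CPM (-3.80, SE 0.145, adjusted p = 1.01e-07). Wdfy1, an endosomal adaptor of toll-like receptors, was at 26.9, 28.6 and 25.9 CPM against 4.79, 3.77 and 3.92 CPM (-2.71, SE 0.124, adjusted p = 2.37e-07).

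The Pelo effect was set against that of deleting Hbs1l (batch 3) and against that of deleting Upf2, a factor of NMD (batch 5), each over the 3 controls of its own pool. Cells called Hbs1l-/- here were CAG-Cre ER; Hbs1l cKO, with 1 floxed and 1 constitutive null allele (Hbs1l fl/-), and Upf2-/- cells were CAG-Cre ER; Upf2 cKO (Upf2 fl/fl). The Hbs1l alleles came from C57BL/6N mice and the Pelo allele was made in C57BL/6J, while the strain of the Upf2 allele is not given in the sources used here, and the part of strain in these differences was not tested. Chi-square per gene was 1.10 to 1.16 between control libraries that carry 1 number in different pools, and 4.06 to 10.5 between different controls. Same-numbered controls were thus close to what counting alone gives, so that the 3 effects share their control cells. A test of the difference between effects found 695 of 12526 genes (5.55%) for Pelo against Hbs1l, 432 more positive (3.45%) and 263 more negative (2.1%) in Pelo-/- cells. Against Upf2 it found 1648 of 12675 genes (13%), 865 more positive (6.82%) and 783 more negative (6.18%). Taken alone, 4083 of 11984 genes (34.1%) were called after loss of Hbs1l and 5279 of 12166 (43.4%) after loss of Upf2. Leaving out control replicate 1 of either pool moved 695 to 384, leaving out Hbs1l-/- replicate 3 moved it to 416, and leaving out control replicate 1 of the Upf2 pool moved 1648 to 1097. A second fit, with each control counted once, has no pool term and compares the mutant libraries directly across pools. The controls do not enter that difference, and differences between pools are not removed from it. It called 2276 genes (17.8%) and 3652 genes (28.5%).

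Medians of the 3 effects are given over the list members that passed the filter in all 3 comparisons, a choice made after seeing the data, since genes high only in Pelo-/- libraries otherwise raise the Pelo median. Counts of differences are over the same members, except those with each control counted once. The latter set mutant against mutant across pools and are over all list members tested. Some of these members passed the filter only through Pelo-/- libraries, so these counts are a description. Over 45 antiviral genes the medians were 4.25 for Pelo, 2.56 for Hbs1l and 2.65 for Upf2. Of the 45 genes the Pelo effect was the more positive for 34 against Hbs1l and for 14 against Upf2, and the more negative for none (47 and 43 of 52 more positive and 1 more negative in either with each control counted once). For Usp18 the differences were 2.35 (adjusted p = 0.0284) and 1.86 (adjusted p = 0.190), and for Rnf213 they were 1.58 (adjusted p = 0.00106) and 1.48 (adjusted p = 0.0178). These and the following differences of single genes are from the test over 12 libraries, in which the shared controls enter once for each pool. Over 21 chemokines and cytokines the medians were 1.92, 0.44 and 0.60, and the Pelo effect was the more positive for 13 genes against Hbs1l and for 10 against Upf2 (22 and 21 of 28, and 1 more negative against Upf2, with each control counted once). Over 24 NF-kB factors and targets they were 1.25, 0.22 and -0.01, with 20 and 19 genes more positive (23 and 24 of 26 with each control counted once). Ccl2 differed by 2.93 (adjusted p = 1.44e-05) and 3.10 (adjusted p = 1.52e-05), and Nfkbia by 1.96 (adjusted p = 1.04e-06) and 2.27 (adjusted p = 1.96e-07). B2m, which gave 0.04 after loss of Hbs1l and -0.21 after loss of Upf2, differed by 1.29 from its change with Hbs1l (adjusted p = 2.34e-06). H2-K1 differed by 2.84 (adjusted p = 0.000119) and 3.12 (adjusted p = 1.15e-05). Macrophage markers, with medians of 1.84, 0.87 and 0.43 over 14 genes, were more positive in Pelo-/- cells for 5 against Hbs1l and for 13 against Upf2. With each control counted once these were 13 and 17 of 17, and their part in these differences was not tested.

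**Figure D4:**
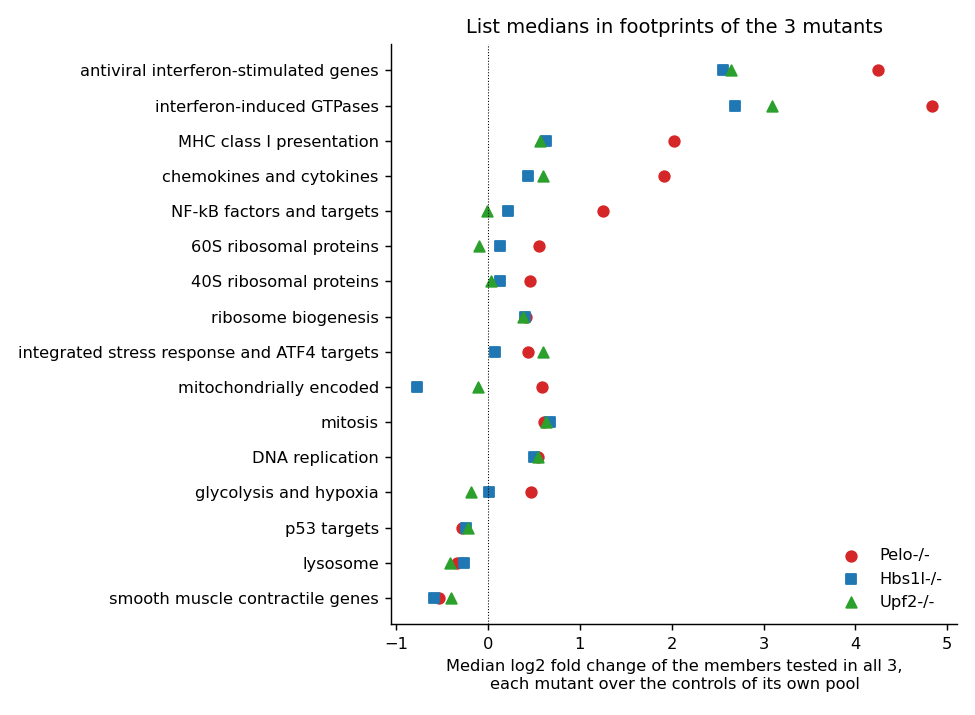
Median log2 fold change of RPF over the members of each gene list tested in all 3 mutants, after loss of Pelo, Hbs1l and Upf2, each over the controls of its own pool. The 3 effects share control cells. Medians after loss of Pelo, Hbs1l and Upf2 are 0.61, 0.68 and 0.63 for mitosis, and 4.25, 2.56 and 2.65 for antiviral genes.

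In the test of the difference from Hbs1l over 12 libraries no gene of the mitosis and DNA replication lists was called. With each control counted once, 2 mitosis genes were more positive and 6 more negative in Pelo-/- cells, and 2 and 1 replication genes. Against Upf2, 1 mitosis gene was more positive and 1 more negative (4 and 4 with each control counted once), and 1 and 2 replication genes (1 and 5). The medians were 0.61, 0.68 and 0.63 for mitosis and 0.55, 0.50 and 0.55 for DNA replication after loss of Pelo, Hbs1l and Upf2. Since the 3 effects share control cells, their medians, here and below, are not independent of each other. Mki67 differed by -0.04 from its change with Hbs1l (adjusted p = 0.935) and by 0.08 from its change with Upf2 (adjusted p = 0.828). Ribosome biogenesis had medians of 0.41, 0.40 and 0.38. Over 45 ribosomal protein genes of the large subunit the medians were 0.56, 0.13 and -0.10, and the Pelo effect was the more positive for 8 genes against Hbs1l and 20 against Upf2, and the more negative for none and 3 (23 and 27 of 48 more positive and 2 and 3 more negative with each control counted once). Glycolysis and hypoxia genes had medians of 0.47, 0.01 and -0.18 over 24 genes, with 9 and 14 more positive (14 of 25 and 17 of 26, and 1 more negative in either, with each control counted once). Genes encoded by mitochondrial DNA had medians of 0.59, -0.77 and -0.11, with 9 and 1 of 13 genes more positive (13 and 11 with each control counted once). Over 35 entries for Atf4 targets the median was 0.44 for Pelo, 0.08 for Hbs1l and 0.60 for Upf2. The Pelo effect was the more positive for 8 and the more negative for none against Hbs1l, and for 2 and 6 against Upf2 (18 and none, and 5 and 6, of 36 with each control counted once). Atf4 itself differed by -0.68 from its change with Upf2 (adjusted p = 0.0211). Among lower genes, Cdkn2a differed by -0.95 from Hbs1l (adjusted p = 0.0283), Ccng1 by -0.58 (adjusted p = 0.00187) and Col2a1 by -2.29 (adjusted p = 0.00325), all further down in Pelo-/- cells. Medians after loss of Pelo, Hbs1l and Upf2 were -0.28, -0.24 and -0.22 for p53 targets. Lysosome genes gave -0.34, -0.26 and -0.41, smooth muscle genes -0.53, -0.59 and -0.40 and Hox genes -0.64, -0.47 and -0.61. Against Hbs1l, 1 p53 target was more positive and 1 more negative in Pelo-/- cells (2 and 6 with each control counted once). These were 4 and 2 (9 and 7) for lysosome, 2 and 0 (4 and 3) for smooth muscle and 0 and 1 (0 and 6) for Hox genes. Wdfy1, lower after loss of Pelo, gave 0.28 and 0.59 after loss of Hbs1l and Upf2, with differences of -2.98 (adjusted p = 2.66e-05) and -3.30 (adjusted p = 1.55e-05).

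RNA of MEFs was sequenced in another pool (batch 6) from separate dishes, with 2 Pelo-/- and 3 control libraries, and is given here as values without a test. RNA CPM are scaled to the library total without TMM factors, unlike footprint CPM. Both Pelo-/- libraries lay above the 3 controls for 34.2% of the genes tested in footprints and below them for 29.6%. Pelo mRNA was at 22.4, 24.1 and 25.0 CPM in controls and at 0.559 and 0.0863 CPM in Pelo-/- cells. Antiviral genes summed to 565.9 to 777.3 CPM in control and 547.5 to 590.8 CPM in Pelo-/- libraries, and 17 of the 49 genes that rose in RPF were below 1 CPM in every RNA library. GTPase mRNAs summed to 42.23 to 52.25 CPM in controls and 33.11 to 39.7 CPM in Pelo-/- cells, with 7 of 12 below 1 CPM throughout. Of other genes that rose in RPF, 10 of 23 chemokines, 5 of 28 sensors, 3 of 19 MHC class I genes and 3 of 23 NF-kB genes were below 1 CPM throughout. So were 3 of 5 endothelial and 3 of 5 neural markers. Usp18 mRNA was at 0.749, 0.729 and 0.944 CPM in controls and 1.04 and 0.734 CPM in Pelo-/- cells. The RNA libraries of Usp18 thus overlapped, while its RPF did not. Rnf213 mRNA was at 9.64, 22.9 and 19.8 CPM against 36.6 and 33.6 CPM, above every control. Chemokine mRNAs summed to 855.5 to 1096 CPM against 1327 to 1352 CPM, but Ccl2 was at 21.3, 27.6 and 34.7 CPM against 11.7 and 12.7 CPM, below every control. Large subunit ribosomal protein mRNAs summed to 36350 to 43570 CPM in controls and 29960 to 30590 CPM in Pelo-/- cells, with 43 of 47 below every control. Lysosome mRNAs summed to 5192 to 5500 CPM against 6787 to 7031 CPM. Col2a1 mRNA overlapped between the genotypes (175.8, 243.3 and 232.9 against 217.6 and 243.2 CPM), while Wdfy1 mRNA was at 47.1, 47.9 and 46.9 CPM against 13.6 and 13.2 CPM. Because footprints and RNA came from different dishes and pools, no ratio of RPF to RNA was formed.

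**Figure D5:**
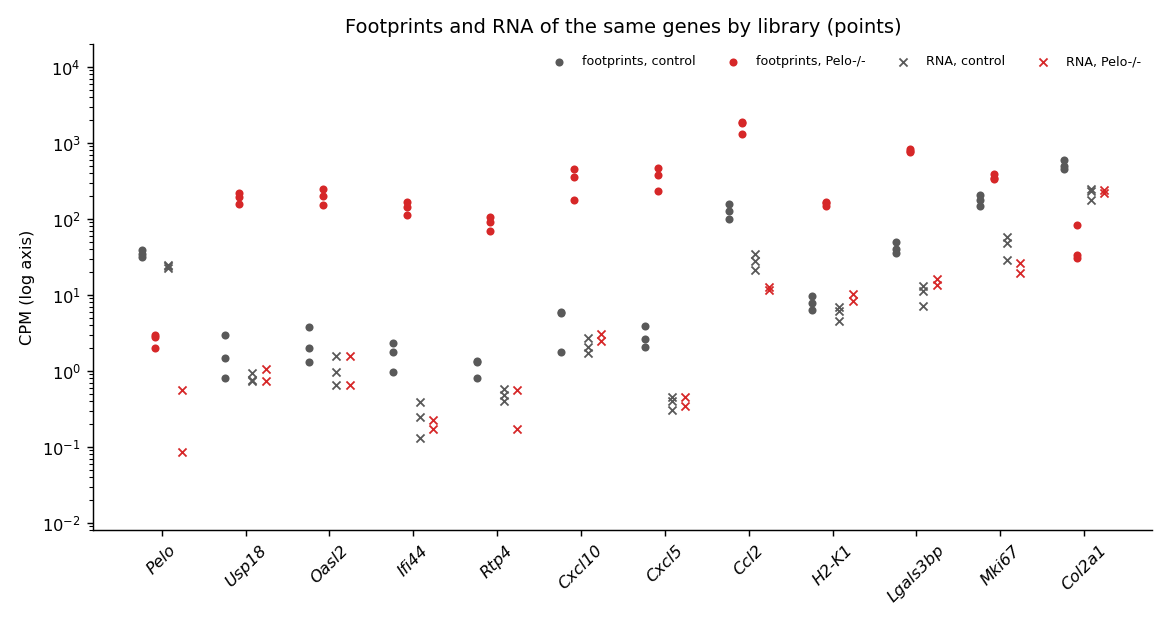
Levels (CPM, log axis) of 12 genes in footprint libraries (dots) and RNA libraries (crosses) of control and Pelo-/- cells. Footprint CPM use TMM factors and RNA CPM use library totals only. Pelo is lower in Pelo-/- cells in both assays, while Usp18, Ccl2 and Col2a1 separate by genotype in footprints in the direction given above and not in the same way in RNA.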

How the data were processed

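Footprints of 3 Pelo-/- and 3 control MEF libraries were compared, with the footprints of Hbs1l-/- and Upf2-/- MEFs and their pools' controls for differences between effects. Groups and replicate numbers came from the labels. For footprints the authors deposited raw counts per gene, whole numbers without normalization. Per their methods, fragments of 15 to 34 nucleotides were purified on a gel, adapters clipped with fastx_clipper, rRNA, snoRNA and tRNA reads removed with bowtie2 2.2.3, the rest mapped with hisat2 2.1.0 to mm10 with Gencode M24 and reads on coding sequences counted with featureCounts, whose strand setting is not given in the sources used here. For RNA the authors deposited estimated counts per transcript from kallisto 0.42.4, which were summed per gene. The submitters' own tests used DESeq2 1.26.0 for footprints and sleuth for RNA. Coordinates come from Gencode M21 (GRCm38), and 41 of 22438 genes have none there.

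The filter (filterByExpr), TMM factors and the quasi-likelihood test of edgeR 4.0.16 in R 4.3.3 were applied without the 100 histone symbols, with a threshold of 0.05 on the Benjamini-Hochberg adjusted p over all tested genes. DESeq2 1.42.0 was an alternative. Footprint CPM are counts scaled to the TMM-adjusted library size. RNA CPM are estimated counts summed per gene and scaled to the library total, without TMM factors. Differences between effects were interactions over 12 libraries. Folds against a group with no count use 3 counts per library, and ratios to 1 to 3 counts carry 95% exact intervals of counting error only, since reads without molecular identifiers are not independent molecules. The scripts were tested on simulated data. The members and lists were chosen with earlier results of these data known, and list symbols were corrected for older names after the data were read. Named genes are Pelo, Hbs1l and Abce1 and, among called genes with groups apart and a mean of at least 5 CPM, the 10 largest changes, the 5 smallest p and the 5 largest changes in CPM in each direction, and in each list up to 8 called members ordered by size of change. Where fewer than 2 members passed, the 2 with the highest mean were named. Other genes are said to be added, or are counted among the exceptions of a list. Each replicate is 1 embryo. Same-numbered samples do not pair the genotypes (correlations of deviations -0.201, 0.227 and -0.011). Alternatives were DESeq2, RLE factors, library totals, other filters, histone genes kept, thinning, the controls of the other pools, leaving out each library and a replicate block.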

Additional observations from a re-analysis of the deposited data

Results flagged for a closer look

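Effects of Pelo loss that differed from those of Hbs1l loss under the same contrast, by a test of the difference, were found for 695 genes. Among them were those of C3 (4.36), Car3 (4.28) and Rpl27a (4.16) in the positive direction and of Pelo (-3.72), Wdfy1 (-2.98) and Arhgap36 (-2.88) in the negative direction, on the log2 scale. Pelo was deleted in Pelo-/- cells only, so its own difference, here and against Upf2, follows from the design. Car3, a carbonic anhydrase gene, rose by 2.196 after loss of Pelo and gave -2.06 after loss of Hbs1l, and it is named here only because of its values. With each control counted once, C3 gave 4.04, Car3 4.16, Rpl27a 3.92, Pelo -3.63, Wdfy1 -2.98 and Arhgap36 -2.79. That fit compares Pelo-/- with Hbs1l-/- libraries directly, across pools.

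Against Upf2 loss the effect differed for 1648 genes. Gpr84, a receptor for medium-chain fatty acids on myeloid cells, gave 5.63, Cxcl5 4.31 and C3 4.09, and Pelo gave -3.66, Wdfy1 -3.30 and Col2a1 -2.37. Gpr84, also named for its values, was at 1.32, 0.895 and 1.07 CPM in controls and 14.4, 8.88 and 9.57 CPM in Pelo-/- cells. With each control counted once, Gpr84 gave 5.69, Cxcl5 5.11, C3 3.85, Pelo -3.60, Wdfy1 -3.31 and Col2a1 -2.39. Here Pelo-/- and Upf2-/- libraries are compared directly, across pools.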

How the results depend on the processing

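The number of called genes in Pelo-/- cells was 5502 and lay between 4783 and 5829 over the alternatives that kept all 6 libraries (4957 with DESeq2, 5417 with library totals only, 5829 with a replicate block). It lay between 4270 and 5217 without 1 library (higher genes 2248 to 2728, lower genes 2022 to 2489). Every gene called both in the main setting and in an alternative had the same direction in each of them. Of 5500 alternative values of the 344 named genes past the threshold, 5401 kept their direction and side of the threshold, 99 (29 genes) lost significance and none reversed. Abce1, not called, changed sign against the controls of the Upf2 pool (-0.023), and without 1 library it lay between -0.027 and 0.121, with 0 without Pelo-/- replicate 1 and -0.005 without control replicate 1. Of 1128 counts and medians of lists 127 moved. The cause was not tested for any of these.

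For the difference from the Hbs1l effect 695 genes were called, 858 with DESeq2, 803 with a replicate block and 384 to 735 without 1 library. For the difference from the Upf2 effect the count was 1648, with 1745, 1475 and 1097 to 1743 in the same order. With the controls of 1 number summed over both pools and counted once, an alternative chosen after seeing the data, it was 2276 and 3652, where the mutant libraries are compared directly although they come from different pools. All 695 main calls against Hbs1l and 1639 of the 1648 against Upf2 were among them with the same direction. The numbers shared by the labels do not pair the samples, and the block moved the count of called genes in Pelo-/- cells from 5502 to 5829. Depth limits the genes with few control counts, such as the 13 tested genes without any. Near copies and overlapping genes limit the assignment of short fragments. With 3 embryos per genotype and 1 pool, p-values cover the spread between these embryos only, whose sex differed within genotypes.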
